A study of Mus musculus with 38 samples.

Results

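The BCL2 family of cell death regulators was followed in cochlear explants through every array probe annotated to 1 of 10 genes (Bcl2, Bcl2l1, Mcl1, Bax, Bak1, Bcl2l11, Bbc3, Pmaip1, Bid and Bad). There were 25 such probes among 25697, and they covered 9 of the 10 genes, out of 16593 gene symbols on the array. No probe carried the symbol Bax, so the gene was not analysed here. Bcl2 had 8 probes, of which 5 cite one RefSeq transcript and 3 cite another. Bcl2l11 had 4 probes, Bcl2l1 and Bbc3 had 3 each, Pmaip1 and Bid had 2 each, and Mcl1, Bak1 and Bad had 1 each. Probes of 1 gene share their target and are not replicates of each other.

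The explants came from C57BL/6 mouse pups in the first days after birth and held the organ of Corti with the attached spiral ganglion. Kainate, a glutamate analogue that overexcites the nerve endings under the hair cells, was given to some explants and withheld from the controls. At 5, 24 or 72 h each explant was cut into a spiral ganglion fraction (SG), which should hold the auditory neurons, and an organ of Corti fraction (OC), which should hold the hair cells and supporting cells. RNA of 19 SG and 19 OC fractions was hybridised to 38 bead arrays. The SG arrays numbered 4 kainate with 4 control (CTRL) after 5 h, 3 kainate with 2 control after 24 h, and 3 of each after 72 h. The OC arrays numbered 4 kainate with 3 control, 2 kainate with 4 control, and 3 of each. The model is an isolated culture without blood supply or brainstem, and each fraction is a mixture of cell types.

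BCL2 proteins decide whether the outer mitochondrial membrane of a cell stays intact. Bcl2, Bcl2l1 (BCL-XL) and Mcl1 guard it, Bax and Bak1 form the pores that open it, and the BH3-only proteins Bcl2l11 (BIM), Bbc3 (PUMA), Pmaip1 (NOXA), Bid and Bad carry stress signals to both groups. In neurons, withdrawal of trophic factors and DNA damage are known to raise the BH3-only genes, with FoxO factors and p53 among the regulators, and BCL2 is a known survival factor of sensory neurons and hair cells.

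The letters upstream of 3 members, Bbc3, Bcl2l11 and Bcl2, are shown because these genes carry the differences between SG and OC described below. They are the 250 bases before an annotated start, on the strand of the gene, from RefSeq on GRCm38.p6. Capitals mark the core of a FoxO motif (GTAAACA or its reverse complement) in the first pair and a core of a cAMP response element (TGACGT) in the last.
Bbc3, chr7:16310011-16310260, plus strand: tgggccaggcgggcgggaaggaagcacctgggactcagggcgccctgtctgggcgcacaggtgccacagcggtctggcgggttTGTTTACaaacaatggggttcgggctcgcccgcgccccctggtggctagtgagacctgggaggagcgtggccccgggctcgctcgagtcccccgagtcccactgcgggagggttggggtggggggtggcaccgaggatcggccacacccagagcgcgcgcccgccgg
Bcl2l11, chr2:128125788-128126037, plus strand: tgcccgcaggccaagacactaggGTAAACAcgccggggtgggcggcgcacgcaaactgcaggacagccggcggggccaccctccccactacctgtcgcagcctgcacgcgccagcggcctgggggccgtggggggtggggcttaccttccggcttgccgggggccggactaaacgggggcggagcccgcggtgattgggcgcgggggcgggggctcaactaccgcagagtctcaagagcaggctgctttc
Bcl2, chr1:106714291-106714540, minus strand: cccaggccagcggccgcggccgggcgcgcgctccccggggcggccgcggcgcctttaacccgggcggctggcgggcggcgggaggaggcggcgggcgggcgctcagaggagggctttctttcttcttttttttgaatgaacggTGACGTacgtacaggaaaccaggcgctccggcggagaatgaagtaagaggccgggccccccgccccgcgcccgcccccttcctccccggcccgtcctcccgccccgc
The FoxO core began 167 bases before the start in Bbc3 and 227 bases before it in Bcl2l11, and the TGACGT core began 107 bases before it in Bcl2. The motifs were chosen with the sequences in view. On both strands the FoxO core stands in 3.17% and the TGACGT core in 6.47% of 32841 mouse windows of the same length. Among 15 windows of 9 member genes (Bax included, Pmaip1 not searched), the FoxO core stood in 2 and the TGACGT core in 1, and other annotated starts of Bbc3 (3 windows in all) and Bcl2l11 (2 windows) lacked it. A match is a run of letters and not a measured binding site.

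Values are log2 of the quantile-normalized signal, and a probe was called detected on an array at a detection p under 0.01. Of the 25 probes, 10 were detected on all 38 arrays, 2 on 19 to 37, 5 on 1 to 18 and 8 on none. The 12 probes detected on at least 19 arrays belonged to 8 genes (4 probes of Bcl2, 2 of Bcl2l11 and 1 each of Bcl2l1, Mcl1, Bak1, Bbc3, Bid and Bad). Both Pmaip1 probes were detected on 0 arrays, and no level of NOXA is read from them. Bak1 was near the limit, with detection on 19 arrays and signals between 7.87 and 8.36. Levels of different probes are not comparable because probes bind with different strength, and only differences within a probe are read.

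The labels of the fractions were checked against marker genes. Of 16 hair cell markers with a probe, 14 were lower and 0 higher in control SG than in control OC, and their mean signal was 8.27 to 9.05 on control SG arrays and 9.71 to 10.19 on control OC arrays. Of 18 neuron markers, 11 were higher and 3 lower in SG. The mean neuron signal of control SG arrays was 9.86 to 10.14 at 5 h, 9.09 ± 0.12 (SD, n = 2) at 24 h and 8.75 to 8.80 at 72 h, against 8.79 to 9.17 on all control OC arrays. At 24 and 72 h the SG arrays thus overlapped the range of all control OC arrays, and only those at 5 h lay above it. Compared with control OC arrays of the same time, the SG arrays at 24 h lay above them and those at 72 h overlapped them. SG control array 2 at 24 h stood apart from its only replicate, array 3, with a hair cell marker mean of 9.05 against 8.47 and a macrophage marker mean of 8.07 against 8.97. Each array detected 10043 to 12171 probes, and replicates correlated at 0.981 to 0.994.

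Bbc3 and Bcl2 set the fractions apart in opposite directions. Over the 3 times, 8 of 25 member probes differed between control SG and control OC at an adjusted p under 0.05 (limma, Benjamini-Hochberg over all probes), which is 32%, and 23.1% of all probes did. The median difference of the member probes was -0.04 and that of all probes -0.01 on the log2 scale. The share called is therefore not far from the background, and the description rests on the single genes. Bbc3 and 1 probe of Bcl2l11 were higher in SG, and 4 probes of Bcl2 and 2 of Bcl2l1 were lower.

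Bbc3, which encodes PUMA, was read by ILMN_2920736. Its log2 signal on control SG arrays was 10.77, 10.89, 11.15 and 11.02 after 5 h, then 10.11 and 10.87 after 24 h, then 9.96, 10.27 and 10.39 after 72 h. On control OC arrays it was 9.69, 9.75 and 9.87, then 9.76, 9.77, 9.70 and 9.85, then 9.70, 9.82 and 9.87 after the same times. Every control SG array lay above every control OC array. The difference averaged over the times was 0.77 ± 0.11 (SE, adjusted p = 1.11e-06), a fold of 1.71. It was 1.19 ± 0.18 at 5 h (adjusted p = 6.45e-06), 0.72 ± 0.20 at 24 h (adjusted p = 0.0193) and 0.41 ± 0.19 at 72 h (adjusted p = 0.179, 95% interval 0.03 to 0.80). Within the 2 array batches (colour groups of the study's clustering plot) that held both fractions at 5 h the difference was 1.15 and 1.08, and within the 2 such batches at 72 h it was 0.45 and 0.27. No batch held both control fractions at 24 h, where SG had 2 arrays. Without SG array 2, the one with high hair cell markers, the 24 h difference was 1.1 (adjusted p = 0.00292), and without array 3 it was 0.34 (adjusted p = 0.618). In a dissected fraction, fewer cells of a type and less RNA per cell cannot be told apart.

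The 2 other Bbc3 probes, ILMN_2690620 and ILMN_2690621, were near background. Each was detected on 4 arrays, and all of these were SG arrays. In the kainate explants ILMN_2920736 was higher in SG by 0.79 ± 0.11 (adjusted p = 6.89e-07). Their fractions were separate at 5 h, where the lowest SG value was 10.31 and the highest OC value 10.09, and overlapped at 72 h, where these were 10.06 and 10.13.

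**Figure D1:**
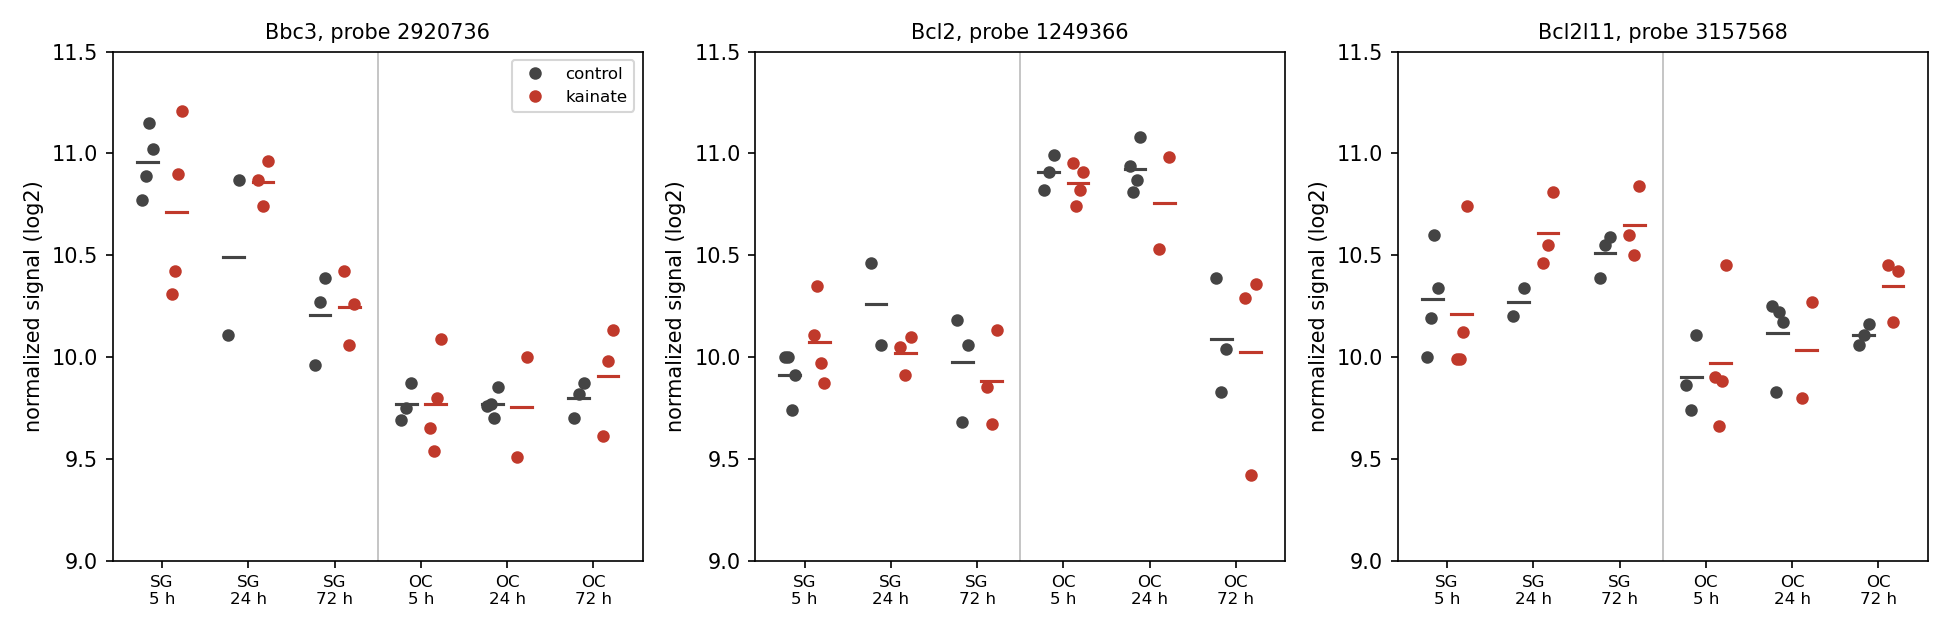
Normalized log2 signal of Bbc3 (ILMN_2920736), Bcl2 (ILMN_1249366) and Bcl2l11 (ILMN_3157568) on each of the 38 arrays, by fraction and hours in culture, with control arrays in grey, kainate arrays in red and a bar at each group mean. Bbc3 is high in SG at 5 h (control mean 10.96) and nearer to OC at 72 h (10.21 against 9.79), while Bcl2 is high in OC at 5 and 24 h (10.91 and 10.93) and falls to 10.08 at 72 h.

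Bcl2, the founding guardian of the family, ran the other way. On control SG arrays ILMN_1249366 read 10.005, 9.996, 9.74 and 9.91 after 5 h, then 10.46 and 10.06 after 24 h, then 10.18, 9.68 and 10.06 after 72 h. On control OC arrays it read 10.82, 10.91 and 10.99, then 10.94, 10.81, 10.87 and 11.08, then 10.39, 9.83 and 10.04 after the same times. At 5 and 24 h all OC arrays lay above all SG arrays, and at 72 h the fractions overlapped. The difference was -0.59 ± 0.10 over the times (adjusted p = 3.91e-05), a fold of 1.51, with -0.996 ± 0.17 at 5 h (adjusted p = 4.70e-05), -0.66 ± 0.19 at 24 h (adjusted p = 0.0251) and -0.11 ± 0.18 at 72 h (adjusted p = 0.803). Within the 2 batches it was -1.11 and -0.82 at 5 h. The 24 h call was lost without SG array 3 (-0.46, adjusted p = 0.434) or OC replicate 4 (-0.61, adjusted p = 0.0694). Of 14 supporting cell markers 11 were lower and 1 higher in control SG, beside the 14 of 16 hair cell markers, and 4 of 13 macrophage markers were higher, and the part of these cell types in the Bcl2 difference was not tested.

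The other detected Bcl2 probes of the same transcript followed, while ILMN_1243345 and ILMN_2597272 of that transcript were detected on 0 arrays. The difference of SG from OC was -0.47 ± 0.10 for ILMN_2706514 (adjusted p = 0.000516) and -0.46 ± 0.12 for ILMN_1249021 (adjusted p = 0.00393). ILMN_2682162, which cites the other transcript, was lower in SG at 5 h, with -0.63 ± 0.17 (adjusted p = 0.0111), and gave -0.19 ± 0.11 over the times (adjusted p = 0.245). One more called probe, ILMN_1215796, at -0.30, was detected on 2 arrays only, both OC. The Bcl2 probes kept their sign in the kainate explants, where ILMN_1249366 gave -0.55 ± 0.10, ILMN_2706514 gave -0.54 ± 0.10 and ILMN_1249021 gave -0.60 ± 0.12 (adjusted p = 9.51e-05, 8.26e-05 and 0.000218).

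Bcl2l11, which encodes the BH3-only protein BIM, was modestly higher in control SG by probe ILMN_3157568. On control SG arrays ILMN_3157568 read 9.997, 10.19, 10.60 and 10.34 after 5 h, then 10.20 and 10.34 after 24 h, then 10.39, 10.55 and 10.59 after 72 h. On control OC arrays it read 9.86, 9.74 and 10.11, then 10.25, 9.83, 10.22 and 10.17, then 10.06, 10.11 and 10.16 after the same times. The fractions overlapped at 5 and 24 h and were separate at 72 h. The difference was 0.31 ± 0.10 (adjusted p = 0.0274), a fold of 1.24, and the call was lost without SG control replicate 3 at 5 h (adjusted p = 0.0548), 3 at 24 h (0.0925) or 4 at 72 h (0.05001) and without OC control replicate 2 at 5 h (0.0640) or 2 at 24 h (0.0531). In kainate explants it was 0.37 ± 0.10 (adjusted p = 0.00766, and 0.0701 without OC replicate 3 at 24 h), and the second probe, ILMN_2590638, gave 0.24 ± 0.07 (adjusted p = 0.00661). In control explants the second probe was not called over the times. Its control means at 5, 24 and 72 h were 8.52, 8.56 and 8.79 in SG and 8.46, 8.45 and 8.54 in OC.

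The remaining guardians gave smaller values. Bcl2l1 was lower in control SG, with -0.18 ± 0.06 for ILMN_2698430 (adjusted p = 0.0415) and -0.16 for ILMN_2742557, which was detected on 9 arrays. Both calls were lost when time and replicate number formed a fixed block (adjusted p = 0.0772 and 0.0588) and with the control arrays alone (0.0631 and 0.0530), and the kainate explants gave 0.09 ± 0.06 for ILMN_2698430. Mcl1, a short-lived guardian, gave 0.21 ± 0.08 in control explants (adjusted p = 0.0592) and was higher in kainate SG by 0.26 ± 0.08 (adjusted p = 0.0174, with 0.0723 without OC replicate 4 at 24 h and 0.0516 without SG replicate 1 at 72 h). In the kainate explants 7 of 25 probes were called (28%, against 23.8% of all probes). The pore former Bak1 (0.06 ± 0.05) and the BH3-only genes Bid (-0.08 ± 0.13) and Bad (-0.14 ± 0.06) were not called in either treatment.

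**Figure D2:**
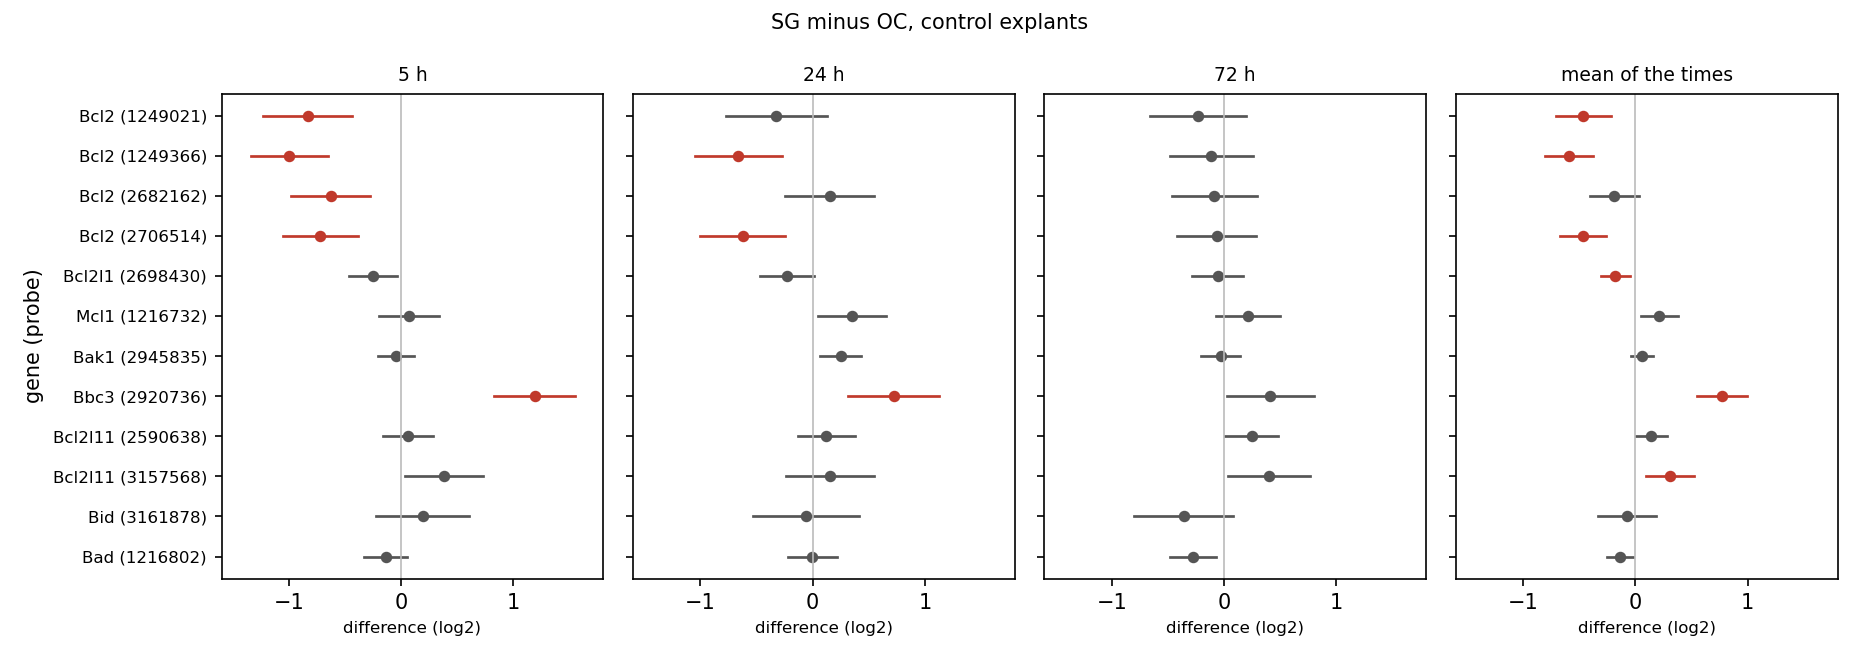
Log2 difference of SG minus OC in control explants for the 12 member probes detected on at least 19 arrays, at each time and averaged over the times, with 95% confidence intervals from the limma fit and calls at an adjusted p under 0.05 in red. Bbc3 lies to the right (1.19 at 5 h) and the Bcl2 probes to the left (ILMN_1249366 at -0.996), and at 72 h no probe is called.

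By time point, 6 of 25 member probes were called at 5 h (24%, against 13.7% of all probes), 3 at 24 h (12%, against 7.84%) and 0 at 72 h, where 12% of all probes were called and 6 member probes (24%, against 22.6%) had an unadjusted p under 0.05. The 24 h count was 0 without SG array 3 and 1 without OC replicate 4. With explant as a random block Bad was called at 72 h (-0.27, adjusted p = 0.0364), as it was with time and number as a random block (adjusted p = 0.0481). With time and replicate number as a fixed block Bbc3 (0.41, adjusted p = 0.0292) and Bcl2l11 ILMN_3157568 (0.40, adjusted p = 0.0319) were called. With array batch as a fixed block Bid ILMN_3161878 was called, lower in SG (-0.55, adjusted p = 0.00122). Within the batches that held both control fractions at 72 h the Bid difference was -0.37 and -0.80, each from 1 array against 1. The change of the SG to OC difference between 5 and 72 h was tested itself. It was 0.88 ± 0.25 for Bcl2 ILMN_1249366 (adjusted p = 0.0318), and -0.78 ± 0.26 for Bbc3 (adjusted p = 0.0905), which did not pass. The Bcl2 call was lost with neqc background correction (1.00, adjusted p = 0.0558) and in 8 of 13 cases with 1 array left out (at most 0.126). This was 1 of 25 member probes (4%), with 4.18% of all probes called.

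Over time in culture, the calls for Bcl2 lay in OC and those for Bbc3 in SG. In OC, Bcl2 fell between 24 and 72 h, and in control SG, Bbc3 fell between 5 and 72 h. In control OC, 3 of 25 member probes were called between 5 and 72 h (12%, against 3.7% of all probes) and 2 between 24 and 72 h (8%, against 0.809%), all of them Bcl2 probes that fell. From 5 to 72 h ILMN_1249366 fell by 0.83 (SE 0.18, adjusted p = 0.00515), ILMN_2706514 fell by 0.71 (SE 0.17, adjusted p = 0.0133) and ILMN_1249021 fell by 0.72 (SE 0.21, adjusted p = 0.0473). From 24 to 72 h ILMN_1249366 fell by 0.84 (SE 0.17, adjusted p = 0.00731) and ILMN_2706514 by 0.77 (SE 0.16, adjusted p = 0.0126). These contrasts share the 72 h arrays.

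On kainate OC arrays ILMN_1249366 read 10.95, 10.74, 10.82 and 10.91 after 5 h, then 10.53 and 10.98 after 24 h, then 10.29, 9.42 and 10.36 after 72 h. The 72 h arrays again lay below the earlier ones. Between 5 and 72 h the same 3 Bcl2 probes were called (12%, against 4.69% of all probes), with ILMN_1249366 at -0.83 (adjusted p = 0.00217). Replicate 3 at 72 h was the lowest in both treatments. Without it the control change from 5 h was -0.70 (adjusted p = 0.0565) and from 24 h was -0.71 (adjusted p = 0.106), and without kainate replicate 3 the kainate change was -0.53 (adjusted p = 0.0538), so that 0 member probes were called in each of these comparisons. The call of ILMN_1249021 in control OC was lost with neqc (-0.77, adjusted p = 0.0695), with time and number as a random block (-0.68, adjusted p = 0.0557) and with each of the 6 arrays left out (adjusted p = 0.0764 to 0.190), and that of ILMN_2706514 from 5 h also without 5 h replicate 2 (0.0600) or 72 h replicate 4 (0.0623). Within batches the control change from 5 to 72 h was -0.88 and -0.43, each from 1 array against 1. Kainate OC between 24 and 72 h gave 1 called probe, ILMN_1249021 at -1.16 (4%, against 0.494% of all probes, adjusted p = 0.0116), and it was lost without 24 h replicate 4 (0.283) or 72 h replicate 4 (0.0850).

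Markers of other cell types differed between the same arrays. The macrophage marker mean (13 genes) was 7.66 to 7.95 in control OC at 5 h and 7.87, 9.03 and 8.34 on replicates 2, 3 and 4 at 72 h, and it was 7.96, 8.93 and 8.43 on the kainate replicates 2, 3 and 4. Replicate 3, the lowest for Bcl2, was thus the highest for macrophage markers in both treatments. The supporting cell marker mean (14 genes) was 11.14 to 11.34 at 5 h and 10.95 to 11.11 at 72 h in control OC, with 1 of 14 lower and 0 higher, and 3 of 16 hair cell markers were higher and 0 lower. Their part in the result was not tested.

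In control SG the one member called between 5 and 72 h was Bbc3, which fell by 0.75 (SE 0.18, adjusted p = 0.00263), a fold of 1.68. This was 1 of 25 member probes (4%), and 15.4% of all probes were called. The 3 arrays at 72 h lay below the 4 at 5 h, and the 1 batch with both times gave -0.80. In OC the same probe gave 0.03 ± 0.19 over the same interval. On kainate SG arrays Bbc3 read 10.31, 10.42, 10.90 and 11.21 after 5 h, then 10.87, 10.74 and 10.96 after 24 h, then 10.42, 10.06 and 10.26 after 72 h. The 5 and 72 h values overlapped (means 10.71 and 10.25), and Bbc3 was not called over that interval in kainate SG. All 24 h values lay above all 72 h values. Kainate SG fell by 0.61 between 24 and 72 h (adjusted p = 0.0411), where 2 of 25 member probes were called (8%, against 7.44% of all probes), and the Bbc3 call held without 72 h replicate 1 (adjusted p = 0.0346) and was lost without any other of the 6 arrays (0.0664 to 0.216), with neqc (-0.68, adjusted p = 0.0591) and with SG arrays alone (adjusted p = 0.1004). The second called probe, Bid ILMN_2757287, was detected on 3 arrays. In the 6 other time comparisons 0 member probes were called, against 1.95% and 2.21% of all probes in control SG from 5 to 24 h and from 24 to 72 h, 0.514% and 14.6% in kainate SG from 5 to 24 h and from 5 to 72 h, and 0.0623% and 0% in control and kainate OC from 5 to 24 h. In these 6, 14 of 150 member tests had an unadjusted p under 0.05 in limma, while 12% of all probe tests did.

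The fall of Bbc3 in SG ran beside that of the neuron markers, of which 14 of 18 were lower and 1 higher at 72 h than at 5 h in control SG, with a median of -1.25 on the log2 scale. Other marker means were lower as well. In control SG the mean of 11 fibroblast markers was 10.62 ± 0.22 (SD) at 5 h and 10.07 ± 0.44 at 72 h. The mean of 9 endothelial markers was 9.51 ± 0.13 and 9.09 ± 0.22, and that of Schwann cell and satellite glia markers also fell. The hair cell, supporting cell and macrophage marker means were not lower at 72 h. In kainate SG the neuron marker mean was 9.68 at 5 h and 9.29 at 24 h. The fibroblast marker mean was 10.56 and 10.66 there, and the Bbc3 mean 10.71 and 10.86. The part of the neurons or of any of these cell types in the Bbc3 result was not tested.

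**Figure D3:**
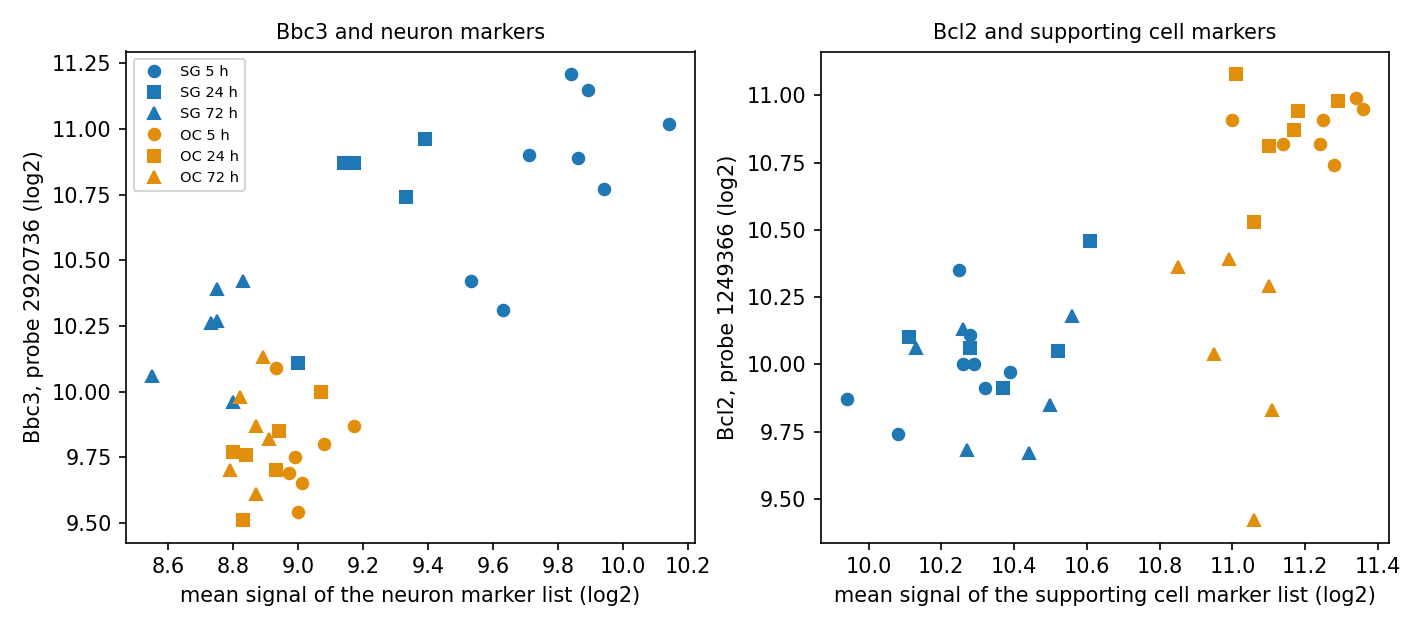
Left, log2 signal of Bbc3 (ILMN_2920736) against the mean log2 signal of 18 neuron markers on each of the 38 arrays. Right, Bcl2 (ILMN_1249366) against the mean of 14 supporting cell markers. Fractions are shown by colour and times by symbol. SG arrays at 5 h hold the highest neuron signals, and the ranges of the SG arrays at 24 and 72 h overlap that of all OC arrays on that axis. The OC arrays at 72 h have Bcl2 signals of 9.42 to 10.39 at supporting cell signals of 10.85 to 11.11.

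Across all 12 groups the order of the Bbc3 means ran from control SG at 5 h (10.96 ± 0.17, SD, n = 4) through kainate SG at 24 h (10.86 ± 0.11, n = 3), kainate SG at 5 h (10.71 ± 0.42, n = 4) and control SG at 24 h (10.49 ± 0.53, n = 2) to the SG groups at 72 h (10.25 ± 0.18 and 10.21 ± 0.22, n = 3 each). The 6 OC groups followed between 9.91 and 9.75, and the ranges of mean ± SD of neighbours in this order overlapped. For Bcl2 ILMN_1249366 the 4 OC groups at 5 and 24 h (10.75 to 10.93) stood above the other 8 groups (9.88 to 10.26).

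**Figure D4:**
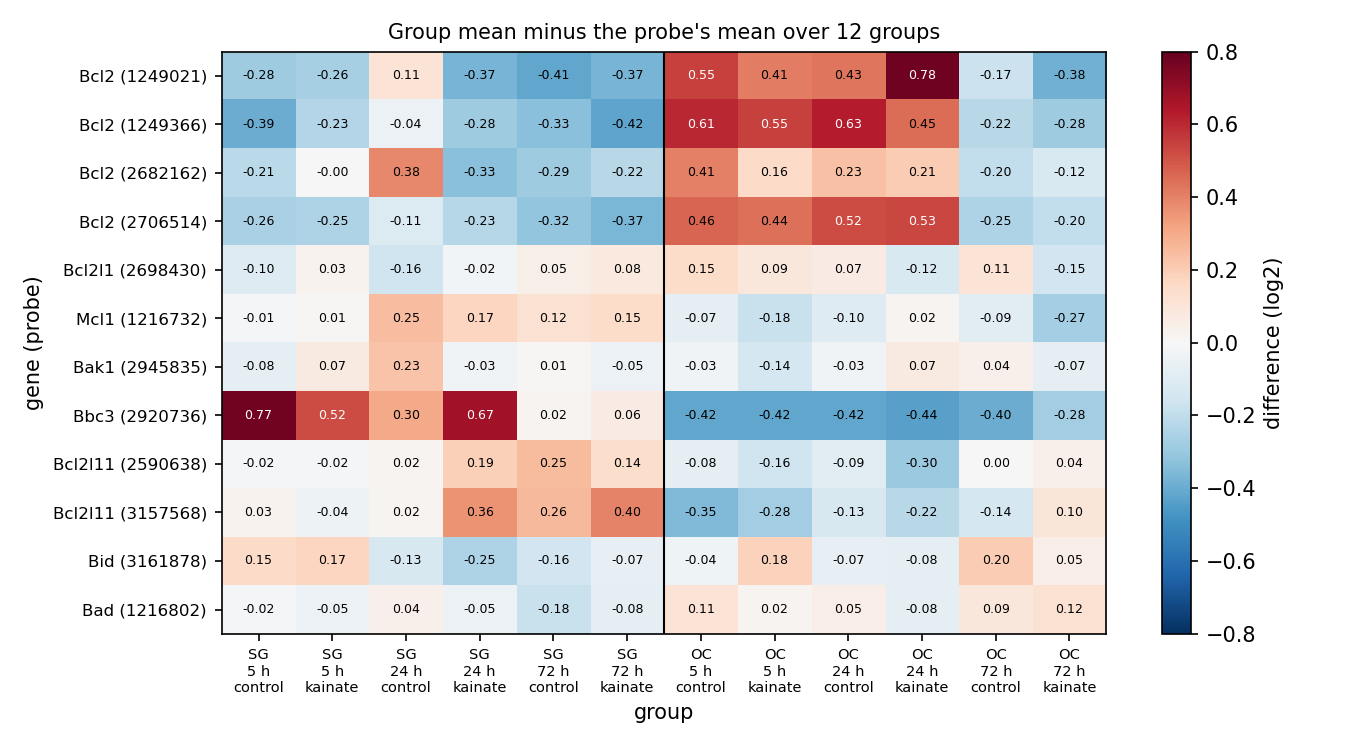
Mean log2 signal of each of the 12 groups minus the mean of that probe over the groups, for the 12 member probes detected on at least 19 arrays, with red for higher and blue for lower values and the difference printed in each cell. Bbc3 is red across SG at 5 and 24 h, and ILMN_1249366, ILMN_2706514 and ILMN_1249021 of Bcl2 are red across OC at 5 and 24 h.

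Bbc3 ILMN_2920736 had the widest range of group means of the 12 probes, 1.20. The 5 probes of other genes with the most similar pattern over the 12 group means, out of 10598 candidates, were Arhgap20 and Medag (Pearson r = 0.983 each), Plekha2 (0.981), Ddit4 (0.978) and Col23a1 (0.978). These values describe 12 means that share fraction and time.

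Few member probes were called between kainate and control. In the 6 comparisons of kainate with control, 1 of the 25 probes passed the study's threshold of an unadjusted p under 0.005, in SG at 24 h (4%, against 1.1% of all probes), and 0 passed after adjustment. In the other 5 comparisons 0 member probes passed, with 0.389% and 0.179% of all probes called for SG after 5 and 72 h, and 0.136%, 0.272% and 0.257% for OC in order of time. At an unadjusted p under 0.05 there were 5 results in 150 tests, and 3.67% of all probe tests passed it. The widest 95% interval of a detected probe reached 0.50 to either side of its estimate, in SG at 24 h, and the narrowest reached 0.15, in SG at 5 h.

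The called probe was ILMN_2682162 of Bcl2. It gave 8.54, 8.28 and 8.57 in kainate SG at 24 h and 9.55 and 8.83 in the control, so that both controls lay above the 3 kainate arrays. The difference was -0.72 ± 0.21 (adjusted p = 0.322). The control value of 9.55 came from array 2, the one with high hair cell markers. Without it the difference was -0.36 and without kainate replicate 3 it was -0.63, neither past the threshold, and no batch held both groups. Of the other Bcl2 probes, ILMN_1249021 gave -0.48 (adjusted p = 0.712), ILMN_1249366 gave -0.25 (adjusted p = 0.878) and ILMN_2706514 gave -0.13 (adjusted p = 0.942), none of them called. Without array 2 ILMN_1249366 gave -0.04 and ILMN_2706514 gave -0.01. The macrophage marker mean was 8.88 to 9.64 on the kainate arrays and 8.07 and 8.97 on the controls, and its part in the result was not tested.

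Bak1 gave 8.06, 8.13 and 8.11 with kainate and 8.36 and 8.35 without in SG at 24 h (-0.25 ± 0.10, adjusted p = 0.569). At 5 h it gave 8.27, 8.17, 8.12 and 8.24 with kainate and 8.11, 8.02, 8.06 and 8.01 without (0.15 ± 0.07, not called). The groups did not overlap at either time, and all of these signals are near the detection limit. In OC the Bak1 groups did not overlap at 72 h either (8.03 to 8.09 with kainate, 8.12 to 8.25 without). At 24 h in OC they met at 8.16 after rounding, with kainate the higher. They overlapped in OC at 5 h and in SG at 72 h. The share of all probes without overlap was not computed. The BH3-only genes Bbc3 and Bcl2l11 gave 0.37 ± 0.21 and 0.34 ± 0.20 (ILMN_3157568) in SG at 24 h (adjusted p = 0.776 and 0.797). Without control array 2 the Bbc3 value was -0.01 and without array 3 it was 0.74 (adjusted p = 0.222), and Bbc3 gave -0.25 ± 0.16 in SG at 5 h (95% interval -0.58 to 0.08). At 5 h the 2 lower kainate arrays (10.31 and 10.42) lay below all 4 controls and the highest (11.21) above them. The kainate effect was called different between SG and OC for 0 member probes at 5, 24 and 72 h (against 0.198%, 0.37% and 0.163% of all probes). Of these 75 member tests 6 had an unadjusted p under 0.05 in limma, while 3.12% of all probe tests did. Between 5 and 24 h the kainate effect was called different for 2 member probes in SG (8%, against 0.895% of all probes), ILMN_2682162 and Bak1. In OC it was called different for 0 (against 0.183%, with 0 members at an unadjusted p under 0.05). In OC the values of the detected probes lay between -0.26 (Bcl2l1 at 72 h, 95% interval -0.49 to -0.03) and 0.35 (Bcl2 ILMN_1249021 at 24 h, 95% interval -0.10 to 0.80).

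**Figure D5:**
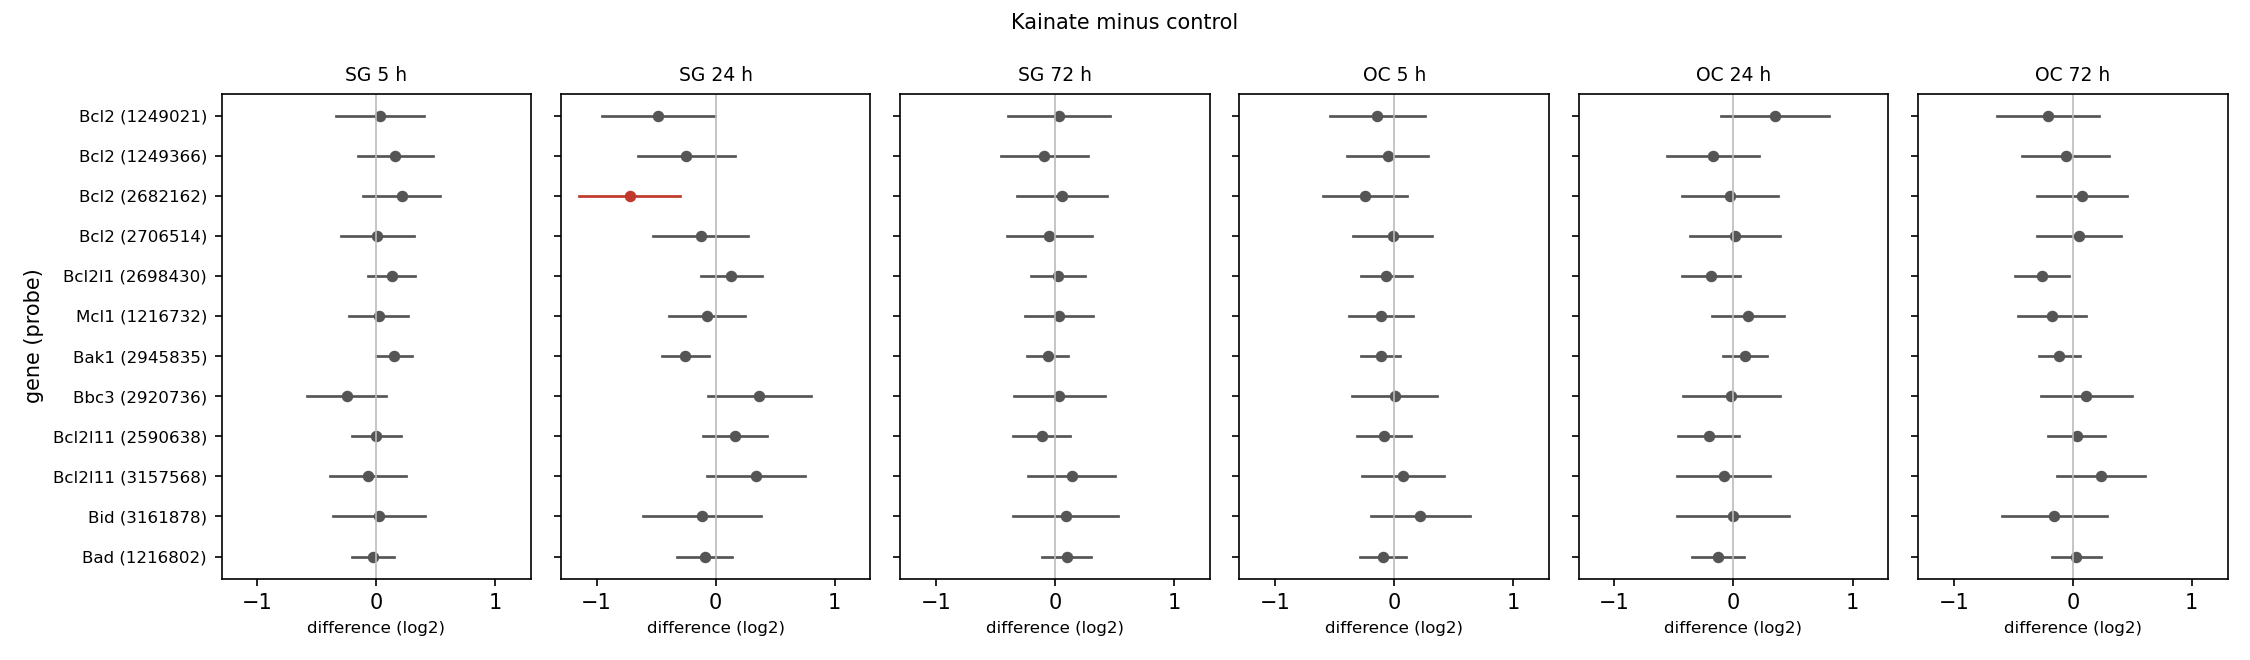
Log2 difference of kainate minus control in SG and OC at 5, 24 and 72 h for the 12 member probes detected on at least 19 arrays, with 95% confidence intervals from the limma fit and an unadjusted p under 0.005 in red. One interval is red, Bcl2 ILMN_2682162 in SG at 24 h (-0.72), and the SG 24 h panel spans -0.72 to 0.37.

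The genes around the family were read from 4 lists, 1 probe a gene, the brightest. The shares of all probes given beside them include 11268 probes detected on 0 arrays, so they are not a matched background. Between control SG and OC, 10 of 23 p53 pathway genes were higher in SG and 2 lower (median 0.07), while 11.1% of all probes were higher and 12% lower (median -0.01). They included Phlda3, an inhibitor of AKT (0.89 ± 0.10, adjusted p = 1.36e-08), the growth arrest gene Gadd45a (1.03 ± 0.13, adjusted p = 2.43e-07) and the kinase gene Plk2 (0.79 ± 0.11, adjusted p = 8.76e-07). Of 23 genes listed as regulators upstream of the BH3-only genes, 8 were higher and 1 lower (median 0.12). The list also held the member Bcl2l11 itself and Fbxw7, which acts on MCL1, so its counts are not separate from the members. Ddit3 (CHOP), a stress transcription factor, was higher by 1.46 ± 0.18 (adjusted p = 1.12e-07), Atf3 by 1.04 ± 0.15 (adjusted p = 2.74e-06) and Stat3 by 0.68 ± 0.11 (adjusted p = 1.60e-05).

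Of 16 other BCL2 family genes, 4 were higher and 2 lower in SG (median 0.05), against 11.1% and 12% of all probes, with Bok, a relative of the pore formers, at 0.44 ± 0.10 (adjusted p = 0.00128), Bcl2l14 at -0.55 ± 0.08 (adjusted p = 5.42e-06, detected on 10 arrays) and Bcl2l13 at -0.27 ± 0.08 (adjusted p = 0.0119). Of 23 genes of the apoptosome, the caspases and their inhibitors, 4 were higher and 2 lower (median 0), again against 11.1% and 12%. The mitochondrial channel gene Vdac1 gave 0.50 ± 0.07 (adjusted p = 2.01e-06), the initiator caspase gene Casp9 gave 0.27 ± 0.05 (adjusted p = 0.000255), and Diablo, an antagonist of caspase inhibitors, gave -0.25 ± 0.06 (adjusted p = 0.000706).

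From 5 to 72 h in control SG, 5 of the 23 genes of the upstream regulator list were lower and 0 higher. Of all probes, 7.26% were lower and 8.18% higher. Fbxw7, which marks MCL1 for degradation, fell by 0.78 (adjusted p = 0.000126), Jun fell by 0.83 (adjusted p = 0.00236) and E2f1 fell by 0.60 (adjusted p = 0.00545). Of the 16 other family genes 3 were higher and 2 lower, with the BH3-only gene Bik at 1.22 ± 0.20 (adjusted p = 2.72e-05), Bnipl at 0.80 ± 0.11 (adjusted p = 4.60e-06) and Bnip2 at -0.52 ± 0.10 (adjusted p = 0.000539). Among the p53 genes 2 were higher and 3 lower, with Plk2 at -1.06 ± 0.18 (adjusted p = 4.27e-05), Trp53inp1 at 0.83 ± 0.18 (adjusted p = 0.00110) and Ccng1 at 0.43 ± 0.14 (adjusted p = 0.0324), and among the apoptosome genes 1 was lower (Birc5, survivin, -0.79, adjusted p = 0.0132). In control OC over the same interval, where 1.94% of all probes were higher and 1.76% lower, 3 of 23 p53 genes were higher and 0 lower, Cdkn1a (p21) by 0.89 ± 0.18 (adjusted p = 0.00254), Gadd45a by 1.06 ± 0.23 (adjusted p = 0.00524) and Trp53inp1 by 0.84 ± 0.19 (adjusted p = 0.00839). Bcl2l14 was higher as well (0.54 ± 0.15, adjusted p = 0.0296), and 0 genes of the remaining lists were called.

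After kainate, 0 of the 85 genes of the 4 lists passed an unadjusted p under 0.005 in any of the 6 comparisons, and 16 of 510 tests (3.14%, against 3.67% of all probe tests) had an unadjusted p under 0.05 in limma.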

How the data were processed

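RNA was measured on Illumina mouse bead arrays. The authors deposited raw signal intensities, detection p-values and normalized log2 values. The deposited log2 values equal the quantile-normalized log2 of the raw intensities to within 4.99e-09, and the deposited series matrix holds the same log2 values. The version of limma named by the labels is not given here.

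Probes were named from the platform annotation (23978 of 25697 with 1 symbol). Linear models with 1 mean for each of the 12 groups were fitted over all 38 arrays with limma 3.58.1 in R 4.3.3 (26 residual and 5.36 prior degrees of freedom). Kainate effects and their differences were called at an unadjusted p under 0.005, while fraction and time contrasts used Benjamini-Hochberg values over 25697 probes and a limit of 0.05. All member probes were tested and entered the counts, and not every one of them is named with its values. Up to 3 genes per list and contrast were named by smallest p, and for the widest-ranging member the 5 probes most correlated over group means. List genes with several probes were read by the brightest. The members and gene lists were chosen with earlier results of these data known. The contrast of kainate explants between fractions and the change of the fraction difference with time were added after the data were seen. Array batch (5 batches of 7 or 8 arrays) was read from a colour bar in the study's clustering plot.

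SG and OC arrays of the same number, time and treatment were taken to come from 1 explant, since the study's methods say that each explant was divided. Their deviations from the group means correlated above 0.1 in 16 of 16 pairs (0.165 to 0.575). The fit was tested on simulated data with independent noise on each array. That setting lacks the shared deviations of explants, so the simulation does not cover their effect on the p-values. Per the study's methods the kainate explants came from different animals, and for the controls, described as different explants, it is not stated, so p-values measure the spread between these arrays. The number of arrays limits the precision.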

Additional observations from a re-analysis of the deposited data

Results flagged for a closer look

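In a group of 4 arrays, 1 array stood far from the other 3 in 2 of 48 combinations of probe and group, and chance gives about 1 in 20. Bcl2 ILMN_2682162 was 8.74 on kainate OC array 2 at 5 h, and 9.02, 9.03 and 9.08 on the others. Bid ILMN_3161878 was 9.70 on control OC array 4 at 24 h, and 9.19, 9.19 and 9.27 on the others.

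The kainate effect in SG differed between 24 and 5 h for 2 member probes (8%, against 0.895% of all probes) by an interaction term of the limma fit. For Bcl2 ILMN_2682162 the change was -0.94 (adjusted p = 0.350), and without SG control array 2 at 24 h it was -0.57 and no longer called. For Bak1 the change was -0.40 (adjusted p = 0.457), and the call was lost without SG control replicate 2 or 3 at 24 h, kainate replicate 1 at 24 h or kainate replicate 1 at 5 h (-0.41 to -0.38). Neither passed after adjustment over all probes.

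The change from 5 to 72 h differed between SG and OC for Bcl2 ILMN_1249366, by 0.88 (adjusted p = 0.0318). Leaving out 1 of 13 arrays in turn gave 0.75 to 1.04, and the adjusted p was above 0.05 in 8 of the 13 cases (at most 0.126).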

How the results depend on the processing

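Alternatives covered background correction (neqc), filters on dim probes, the replicate block, array batch, narrower sets of arrays and each array left out in turn. No member probe called in the main fit changed the sign of its difference in any of them. Differences that were not called were not part of this check, and some changed sign. Without SG control array 2 at 24 h the kainate effect on Bbc3 in SG went from 0.37 to -0.01. In the same setting the 24 h difference of SG from OC for Bcl2 ILMN_2682162 went from 0.15 to -0.21. The count of called member probes for the kainate effect in SG changing between 5 and 24 h was 2 and became 1 with SG arrays alone. For the change of the SG to OC difference with time it was 1 and became 0 with neqc, 2 with the replicate block, 4 with array batch and 3 with the control arrays alone. For control SG from 5 to 72 h it was 1 and became 3 with array batch. For kainate SG from 24 to 72 h it was 2 and became 1 with neqc, 1 with detected probes, 1 with the replicate block, 1 with array batch and 0 with SG arrays alone. For kainate OC from 24 to 72 h it was 1 and became 2 with the replicate block and 3 with array batch. For SG against OC at 72 h it was 0 and became 1 with the random replicate block, 2 with the fixed one, 1 with explant as a block and 1 with array batch. The causes of these shifts were not tested. With single arrays left out, the count ranged from 5 to 10 for SG against OC in controls, where it was 8 (5 without SG control replicate 3 or OC control replicate 2 at 5 h), 0 to 3 at 24 h and 0 to 1 at 72 h alone, 0 to 1 for kainate in SG at 24 h, 0 to 1 for the difference of the kainate effect between fractions at 5 h and 0 to 1 at 24 h, 0 to 3 for its change in SG, 0 to 1 for the change of the fraction difference, 0 to 2 for control OC from 5 to 72 h and 0 to 2 from 24 h, 0 to 3 for kainate OC from 5 to 72 h and 0 to 1 from 24 h, and 0 to 2 for kainate SG from 24 to 72 h.

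For kainate and control explants of 1 number, the labels give no shared source beyond that number. Their deviations correlated above 0.1 in all pairs at 5 h (4 of 4 in SG and 3 of 3 in OC). At 24 h this held for 0 of 1 pairs in SG and 1 of 2 in OC, and at 72 h for 1 of 2 and 2 of 3. The source of these shared deviations was not tested. The replicate block moved the all-probe count of kainate calls in SG from 100 to 151 at 5 h and from 282 to 354 at 24 h. With explant as a random block, an alternative added after seeing the data, every probe called between fractions kept its call. A fixed block was not run for time contrasts, since numbers lie within times. Groups of 2 arrays (SG control and OC kainate at 24 h) limit those comparisons most, and 8 member probes were detected on 0 arrays.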
